A study of Mus musculus with 9 samples.

Results

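The 10 genes described here belong to the immediate early class and were followed across the corneas of 3 mouse genotypes: Nr4a1, Atf3, Fos, Fosb, Junb, Egr1, Egr2, Egr3, Ier2 and Ier3. They were chosen by name, and each was read from the array row whose platform annotation gives that gene as its only symbol. All 10 had exactly 1 such row, and they are 10 of the 22180 genes measured in this way. The rescued group carried the Dstncorn1 mutation together with genetic removal of Srf from the epithelium of the cornea. The mutant group carried Dstncorn1 without that removal, and the third group was wild type (WT). Every mouse received doxycycline by intraperitoneal injection from postnatal day 28 to day 58, was collected at day 58 and came from a mixed background that combined FVB, Swiss Black, 129, A.BY and C57BL6/J. There were 3 pools in each group, each of 10 corneas taken from 5 mice. Corneas were measured whole, so RNA of the stroma and endothelium was read together with that of the epithelium, and fewer cells of a type and less RNA per cell cannot be told apart. The labels name neither the line that drives the removal of Srf nor the state of the Srf alleles in mutant and WT mice.

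Immediate early genes are transcribed within minutes of a stimulus, without new protein synthesis. Many of them carry serum response elements, at which serum response factor (SRF) binds a CArG box, together with ternary complex factors that extracellular signal-regulated kinases phosphorylate. A different set of SRF partners, the myocardin-related factors, responds to the pool of monomeric actin, and destrin, the product of Dstn, depolymerises actin filaments. Most of the 10 genes encode transcription factors: nuclear receptor NR4A1, the bZIP proteins ATF3, FOS, FOSB and JUNB, and the zinc finger proteins EGR1, EGR2 and EGR3. IER3 is known as a regulator of cell survival rather than a DNA-binding factor, so the class name describes its induction and not its function.

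All levels are given as log2 intensities after the authors' normalisation. The array medians ran between 6.75 and 6.78, and precision is limited by the number of arrays, 3 per group. Pearson correlations across all rows, which are not independent, were 0.990 to 0.993 within groups and 0.971 to 0.988 between groups. Dstn had a mean log2 intensity of 5.62 ± 0.01 in rescued, 5.63 ± 0.15 in mutant and 12.57 ± 0.02 in WT corneas (SD, n = 3 each), so it was low in both groups that carry Dstncorn1. Srf had log2 intensities of 9.14, 9.45 and 8.45 in the rescued pools, against 10.77, 10.72 and 10.55 in the mutant pools and 9.23, 8.98 and 9.17 in the WT pools. The rescued pools thus differed more in Srf among themselves than the pools of either other group did, and rescued and WT corneas did not pass the test for Srf (log2 difference −0.12, adjusted p = 0.787, limma). The corneal epithelial genes Krt12, Krt14, Pax6 and Aldh3a1 had a mean log2 intensity of 13.3 in rescued, 13.0 to 13.1 in mutant and 13.1 in WT pools. Within this list Krt12, Pax6 and Aldh3a1 were lower in mutant than in WT (log2 differences −0.42, −0.68 and −0.47) and Krt14, a keratin of basal cells, was higher (1.22). In rescued minus mutant corneas Krt12, Pax6 and Aldh3a1 were higher (0.39, 0.44 and 0.43) and Krt14 was lower (−0.26), and Krt14 was still higher in rescued than in WT (0.96). The part of these changes in the values below was not tested.

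In mutant corneas Nr4a1, Atf3, Fosb and Egr2 were higher and Fos was lower than in WT, while Junb, Egr1, Egr3, Ier2 and Ier3 did not pass the test. The 4 higher genes of 10 compare with 15.1% of all 22180 genes called higher in this comparison, and 1 lower gene with 16.5% called lower (limma, adjusted p under 0.05). In rescued corneas Nr4a1 and Atf3 were lower than in mutant corneas and still above WT, whereas no change from mutant was called for Fosb, Fos or Egr2. These were 2 of 10 lower and 0 of 10 higher in rescued than in mutant, against 6.88% and 6.46% of all genes. At an unadjusted p under 0.05 (limma) the counts were 3 lower and 0 higher. The shares of all genes at that threshold were not counted, and those above are not to be set against these counts. Against WT, 4 of 10 were higher in rescued corneas (Nr4a1, Atf3, Fosb and Ier3) and Fos was lower, with 6.28% and 7.43% of all genes called. The median log2 difference of the 10 genes was 0.23 for mutant minus WT, −0.03 for rescued minus mutant and 0.11 for rescued minus WT, and over all genes it was −0.02, −0.002 and −0.01. With 10 genes these medians and counts are descriptions.

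**Figure D1:**
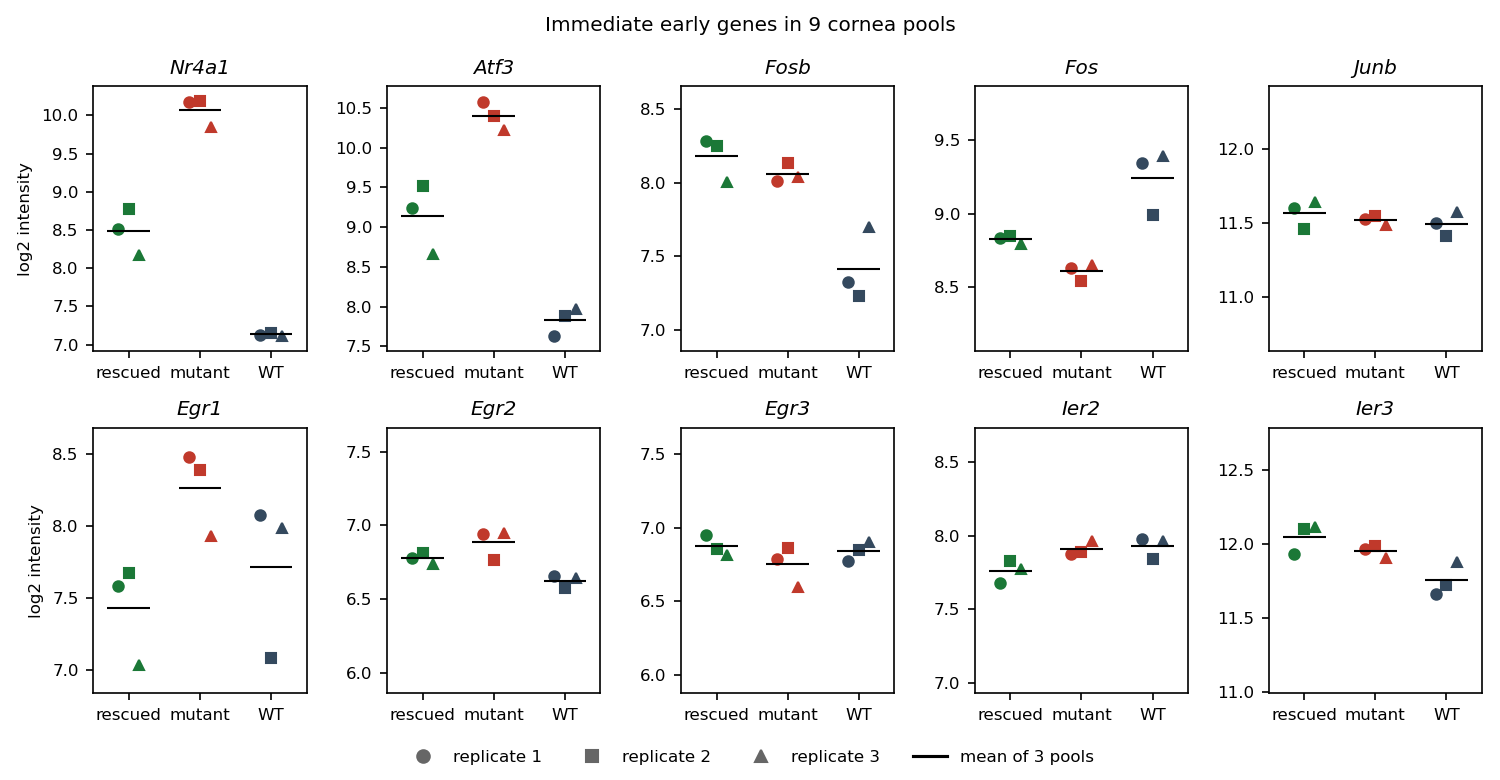
Log2 intensity (vertical axes, each with its own range) of the 10 genes in the 9 cornea pools. Points are pools, shapes are replicate numbers, which were not used as pairs across groups, and bars are means of 3 pools. Nr4a1 and Atf3 form 3 separate steps, with mutant highest and rescued between mutant and WT. Fosb in the rescued pools stays with the mutant pools.

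Nr4a1 showed the largest differences of the 10 in every comparison. It encodes an orphan nuclear receptor, also called NUR77, that is induced by growth factors, calcium and stress. Its log2 intensities were 8.51, 8.78 and 8.17 in the rescued pools, 10.18, 10.19 and 9.85 in the mutant pools, and 7.13, 7.16 and 7.11 in the WT pools. The groups did not overlap, with mutant highest and WT lowest, and the WT pools were nearly equal. Mutant corneas exceeded WT corneas 7.66-fold in Nr4a1 (log2 difference 2.94, SE 0.14, adjusted p = 1.01e-06, limma). It was 3.00-fold lower in rescued than in mutant corneas (log2 difference −1.59, 95% interval −1.91 to −1.26, adjusted p = 0.000159). It was still 2.55-fold higher in rescued than in WT corneas (log2 difference 1.35, 95% interval 1.03 to 1.67, adjusted p = 0.000412), so the return was partial.

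The Nr4a1 start region is shown because this gene moved most. The RefSeq table (GRCm38.p6) gives 250 bases before and 50 after a start, 5′ to 3′ on the gene's strand, and held windows for 7 of the 10 genes, with Egr1, Egr3 and Ier2 not among them. Both strands were searched for the CArG box, the cyclic AMP response element (CRE) core TGACG, the AP-1 site TGANTCA, the ETS core CCGGAA and the EGR site GCGGGGGCG. Capitals mark the CArG box and the CRE core, which reads CGTCA when it lies on the opposite strand.

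Nr4a1, chr15:101266596-101266895, plus strand: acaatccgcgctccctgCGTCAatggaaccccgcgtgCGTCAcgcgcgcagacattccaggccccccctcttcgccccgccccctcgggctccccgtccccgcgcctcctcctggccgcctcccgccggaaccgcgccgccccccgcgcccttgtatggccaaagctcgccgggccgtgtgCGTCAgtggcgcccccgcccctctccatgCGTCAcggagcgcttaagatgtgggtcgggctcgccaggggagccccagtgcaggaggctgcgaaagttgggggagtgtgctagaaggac

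This window held 4 CRE cores, whose leftmost bases lay at −233, −213, −69 and −40 from the start, with −1 for the base just before it. It also held an EGR site at −60 and an ETS core at −125, and no exact CArG box. A CRE core occurred in 20.8% of all 32851 windows of the table, an EGR site in 2.91% and an ETS core in 14.9%. A match is only a run of letters, and the absence of one says nothing of elements outside the window.

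Atf3 followed the same 3 steps. It encodes a stress-induced bZIP factor that binds CRE-like sites and often represses its targets. Log2 intensities were 9.24, 9.52 and 8.66 in rescued, 10.58, 10.39 and 10.23 in mutant and 7.64, 7.89 and 7.97 in WT pools. The groups did not overlap, and the rescued pools spread most (SD 0.44, against 0.17 in mutant and 0.17 in WT). Atf3 was 5.92-fold higher in mutant corneas than in WT (log2 difference 2.57, SE 0.19, adjusted p = 1e-05). In rescued corneas it was 2.39-fold lower than in mutant (log2 difference −1.26, SE 0.19, adjusted p = 0.00254) and 2.47-fold higher than in WT (log2 difference 1.31, SE 0.19, adjusted p = 0.00237). Over the 9 arrays Atf3 and Nr4a1 had a Pearson r of 0.99, and after subtraction of group means r was 0.88. These points share the arrays and the 3 group levels, so the values are descriptions.

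The Atf3 window is printed for comparison with that of Nr4a1, with the same letters in capitals.

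Atf3, chr1:191183284-191183583, minus strand: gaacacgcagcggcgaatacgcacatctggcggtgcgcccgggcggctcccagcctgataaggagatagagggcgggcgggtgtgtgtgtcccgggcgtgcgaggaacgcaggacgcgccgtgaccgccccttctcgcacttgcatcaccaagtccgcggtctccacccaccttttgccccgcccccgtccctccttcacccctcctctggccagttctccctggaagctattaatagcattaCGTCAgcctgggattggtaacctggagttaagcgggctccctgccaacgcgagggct

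It held 1 CRE core, at −7, and none of the other 4 motifs.

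Fosb and Fos, which encode partners of JUN proteins in AP-1, moved in opposite directions in mutant corneas. Fosb log2 intensities were 8.28, 8.25 and 8.01 in rescued, 8.01, 8.13 and 8.04 in mutant and 7.32, 7.23 and 7.70 in WT pools. Every rescued and every mutant pool lay above every WT pool, and the rescued and mutant pools overlapped. Fosb was 1.56-fold higher in mutant corneas than in WT (log2 difference 0.64, SE 0.12, adjusted p = 0.00280) and 1.70-fold higher in rescued than in WT (log2 difference 0.76, SE 0.12, adjusted p = 0.00354). Between rescued and mutant the log2 difference was 0.12, with a 95% interval of −0.16 to 0.39 (adjusted p = 0.603). That interval does not reach a fall of the size of the 0.64 by which mutant exceeded WT.

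Fos log2 intensities were 8.83, 8.85 and 8.80 in rescued, 8.63, 8.54 and 8.65 in mutant and 9.34, 8.99 and 9.39 in WT pools. All 3 groups were separate, with mutant lowest and WT highest. Fos was 1.55-fold lower in mutant than in WT (log2 difference −0.63, SE 0.10, adjusted p = 0.000862) and 1.33-fold lower in rescued than in WT (log2 difference −0.42, SE 0.10, adjusted p = 0.0222). The call for rescued minus WT was lost when any single rescued pool, or WT replicate 1 or 3, was left out (adjusted p = 0.0545 to 0.0787). All 3 rescued pools lay above the mutant pools, but the log2 difference of 0.22 did not pass the test (95% interval −0.005 to 0.44, adjusted p = 0.195).

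The windows of both genes are set side by side because their transcripts moved in opposite directions.

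Fosb, chr7:19309996-19310295, minus strand: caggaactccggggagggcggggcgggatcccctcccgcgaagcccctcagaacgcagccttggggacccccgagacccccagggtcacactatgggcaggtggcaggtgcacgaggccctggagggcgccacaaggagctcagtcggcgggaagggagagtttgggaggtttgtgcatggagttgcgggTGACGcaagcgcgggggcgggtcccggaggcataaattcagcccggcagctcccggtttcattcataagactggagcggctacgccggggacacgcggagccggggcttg

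Fos, chr12:85473640-85473939, plus strand: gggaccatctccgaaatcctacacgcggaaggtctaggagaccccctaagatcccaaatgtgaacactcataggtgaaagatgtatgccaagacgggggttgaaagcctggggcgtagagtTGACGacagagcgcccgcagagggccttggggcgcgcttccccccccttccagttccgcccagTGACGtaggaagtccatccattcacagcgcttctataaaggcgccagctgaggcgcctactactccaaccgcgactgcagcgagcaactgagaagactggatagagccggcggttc

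Both held CRE cores, at −60 in Fosb and at −129 and −66 in Fos. The Fosb window also held an EGR site at −50. Neither held an exact CArG box, an ETS core CCGGAA or the AP-1 site.

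Junb, the gene for another AP-1 subunit, was nearly level across groups. Its log2 intensities were 11.60, 11.46 and 11.64 in rescued, 11.53, 11.54 and 11.49 in mutant and 11.50, 11.41 and 11.57 in WT pools, and all groups overlapped. The 95% interval of the log2 difference was −0.13 to 0.18 for mutant minus WT, −0.11 to 0.20 for rescued minus mutant and −0.08 to 0.23 for rescued minus WT (adjusted p = 0.829, 0.729 and 0.571, limma).

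Among the EGR genes, which encode zinc finger factors at GC-rich sites, Egr2 was called for mutant minus WT, and no other call was made in the 3 comparisons. Egr1 log2 intensities were 7.58, 7.67 and 7.04 in rescued, 8.48, 8.39 and 7.93 in mutant and 8.08, 7.09 and 7.99 in WT pools. The WT pools were far apart, with replicate 2 well below the others, and the Egr1 SD of 0.55 in WT was the largest of the 30 SDs of these genes, whose median was 0.10. Mutant minus WT was 0.55 (95% interval −0.06 to 1.16, adjusted p = 0.166), and 0.23 without WT replicate 2 (adjusted p = 0.488). All 3 rescued pools lay below all mutant pools, with a log2 difference of −0.84 (95% interval −1.44 to −0.23, adjusted p = 0.0753). With single arrays left out its adjusted p ran between 0.0234 and 0.230, highest without rescued replicate 3. That difference passed the test without WT replicate 2 (adjusted p = 0.0234) and with the 6 rescued and mutant arrays alone (adjusted p = 0.0407). It also passed with an intensity-dependent variance prior (adjusted p = 0.0435) and when genes below the median intensity were left out (adjusted p = 0.0416).

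Egr2 was dim, with log2 intensities of 6.78, 6.81 and 6.74 in rescued, 6.94, 6.76 and 6.95 in mutant and 6.66, 6.57 and 6.65 in WT pools. The median of all rows was 6.77, below which signal over background was not shown. Mutant and WT pools did not overlap, but the difference was small (at least 1.20-fold higher in mutant, log2 difference 0.26, SE 0.07, adjusted p = 0.0156). The call was lost without mutant replicate 1 or 3 or WT replicate 2 (adjusted p = 0.0596 to 0.0614). Rescued minus mutant was −0.11 (95% interval −0.26 to 0.04) and rescued minus WT was 0.15 (95% interval −0.002 to 0.30). Neither passed the test (adjusted p = 0.363 and 0.192), so neither a return nor its absence was shown. Egr3 was equally dim, at mean log2 intensities of 6.87 in rescued, 6.75 in mutant and 6.84 in WT corneas, with overlapping groups and no call (adjusted p = 0.381 for rescued minus mutant, 0.452 for mutant minus WT and 0.853 for rescued minus WT).

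Egr2 is printed because it was the only one of the 7 genes with a window that held an exact CArG box, a motif found in 1.63% of all windows. The table gives 5 windows for Egr2, of which 4 held the box; 3 of these overlap and hold the same one.

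Egr2, chr10:67537619-67537918, plus strand: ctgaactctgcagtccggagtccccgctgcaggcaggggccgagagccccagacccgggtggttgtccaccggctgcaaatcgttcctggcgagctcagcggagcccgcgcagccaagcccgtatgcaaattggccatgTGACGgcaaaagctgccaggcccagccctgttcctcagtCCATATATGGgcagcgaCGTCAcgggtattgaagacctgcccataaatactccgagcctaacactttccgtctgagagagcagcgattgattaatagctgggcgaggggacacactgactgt

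In the printed window the box began at −72, between CRE cores at −111 and −55.

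Ier2 and Ier3 changed little. Ier2, the gene for a nuclear protein of the immediate early class, had log2 intensities of 7.68, 7.83 and 7.77 in rescued, 7.88, 7.89 and 7.97 in mutant and 7.98, 7.84 and 7.96 in WT pools. All rescued pools lay below all other pools. The log2 difference was −0.15 for rescued minus mutant and −0.17 for rescued minus WT, and neither passed the test (adjusted p = 0.193 and 0.147). Ier3 had 11.93, 12.10 and 12.11 in rescued, 11.97, 11.99 and 11.91 in mutant and 11.66, 11.72 and 11.88 in WT pools. It was 1.23-fold higher in rescued than in WT (log2 difference 0.29, SE 0.08, adjusted p = 0.0354), a call lost without rescued replicate 2 or 3, mutant replicate 1 or 3, or WT replicate 1 or 2 (adjusted p = 0.0507 to 0.116). It was also lost with the 6 arrays alone (adjusted p = 0.0725). The mutant pools also lay above the WT pools, with a log2 difference of 0.20 that did not pass the test (adjusted p = 0.0863). That difference passed without WT replicate 3 (adjusted p = 0.0365), with the intensity-dependent prior (adjusted p = 0.0325) and with the dimmer genes left out (adjusted p = 0.0441).

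**Figure D2:**
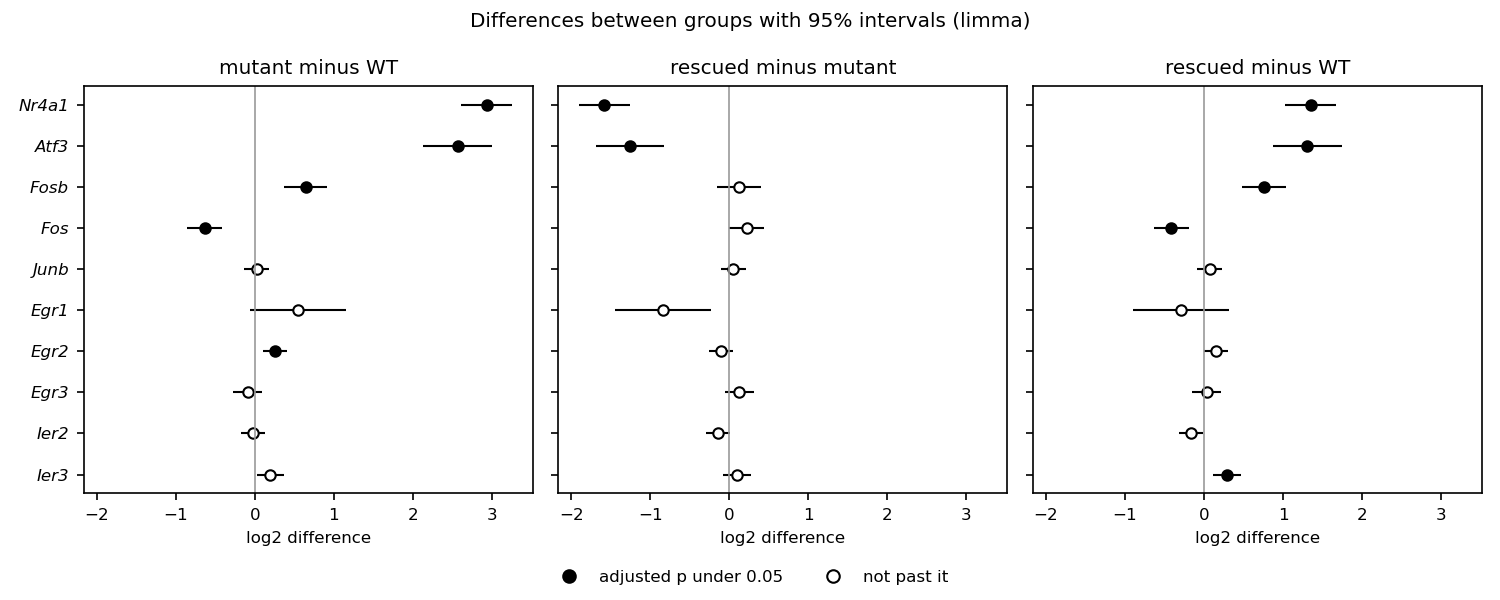
Log2 differences (horizontal axis) of the 10 genes in the 3 comparisons, with 95% intervals from limma as lines. Filled points passed an adjusted p of 0.05; Nr4a1 and Atf3 are filled in all 3 panels, and Fosb and Fos are filled for mutant minus WT and rescued minus WT but not for rescued minus mutant.

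Of the 5 genes called between mutant and WT, then, Nr4a1 and Atf3 returned in part with removal of Srf, and Fosb, Fos and Egr2 were not called to return. The return of Nr4a1 and Atf3, and both Fosb calls against WT, held when each array was left out. Complete separation of the pools ran as follows. Mutant pools lay all above WT in 5 genes and all below in 1, with 21% and 23.7% of all genes for comparison. Rescued pools lay all above mutant in 1 and all below in 4, with 15.1% and 17.1% of all genes. Rescued pools lay all above WT in 5 and all below in 2, with 13.4% and 18.2% of all genes. The 3 comparisons share arrays, so their values are given side by side and not set against each other.

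The rescued pools differed in the same order for Srf, for several of the 10 genes and for markers of some other cells, but not of all. Rescued replicate 3 had the lowest Srf and was also the lowest rescued pool for 7 of the 10 genes, and rescued replicate 2, with the highest Srf, was the highest for 6. Nr4a1, Atf3, Egr1, Egr2 and Fos had the same order over the 3 rescued pools as Srf, although Fos was lower and not higher in mutant than in WT, and Fosb had its lowest value in replicate 3. The same order held for the mean log2 intensity of macrophage markers, at 8.30, 8.43 and 7.97 in rescued replicates 1, 2 and 3, and of conjunctival markers, at 10.31, 10.37 and 9.82. It also held for T, B and mast cell markers, at 7.57, 7.83 and 7.40, and for neutrophil markers, close together at 5.71, 5.73 and 5.66. Replicate 1 was instead lowest for markers of blood endothelium (7.71, 8.01 and 7.91), lymphatic endothelium (7.88, 8.11 and 8.07) and pericytes (9.16, 9.38 and 9.27). Keratocyte markers (11.48, 11.34 and 11.34) and corneal endothelial markers (10.25, 10.18 and 10.15) were highest in replicate 1. In the mutant group replicate 3 was lowest for 6 genes and in the WT group replicate 2 was lowest for 6. The array medians over all rows were 6.78, 6.77 and 6.77 in the 3 rescued pools. The same counts were not made over all genes, so how often other genes have these orders is not given. With 3 pools per group these orders are a description, and the part of Srf or of these cells in them was not tested.

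**Figure D3:**
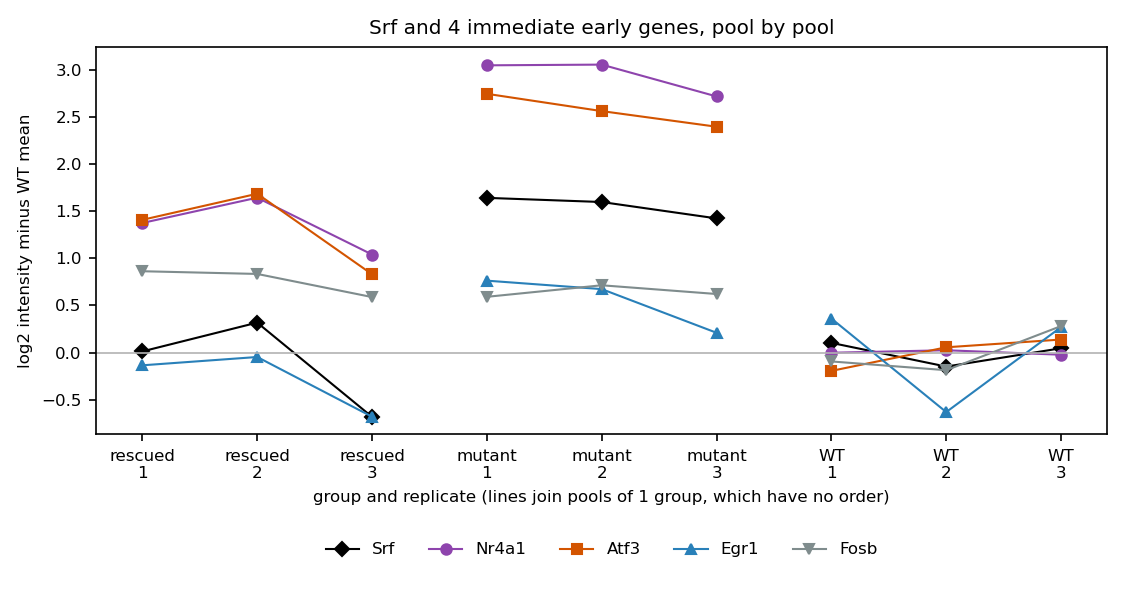
Log2 intensity minus the WT mean of the same gene (vertical axis) for Srf, Nr4a1, Atf3, Egr1 and Fosb in each pool (horizontal axis); lines join pools of 1 group only to guide the eye. In rescued replicate 3 Srf, Nr4a1, Atf3, Egr1 and Fosb are all at their lowest within the rescued group.

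Close paralogues of these genes differed from them and from each other. Nr4a3 behaved much like Nr4a1, with mean log2 intensities of 6.82 in rescued, 8.25 in mutant and 5.53 in WT corneas. Mutant exceeded WT at least 6.60-fold (adjusted p = 4.09e-06), and Nr4a3 was 2.69-fold lower in rescued than in mutant (adjusted p = 0.00083). Nr4a2, in contrast, was 2.10-fold lower in mutant than in WT (adjusted p = 5.03e-05) and 2.02-fold higher in rescued than in mutant (adjusted p = 0.000319). Its log2 intensities were 9.31, 9.32 and 9.62 in rescued, 8.30, 8.47 and 8.44 in mutant and 9.47, 9.33 and 9.62 in WT pools, so that rescued and WT overlapped (log2 difference −0.05, adjusted p = 0.808).

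Jun, whose product is the main partner of FOS proteins, had log2 intensities of 11.79, 12.00 and 11.20 in rescued, 12.61, 12.66 and 12.61 in mutant and 10.65, 10.37 and 10.44 in WT pools. It was 4.42-fold higher in mutant corneas than in WT (adjusted p = 1.5e-05), 1.95-fold lower in rescued than in mutant (adjusted p = 0.00592) and 2.26-fold higher in rescued than in WT (adjusted p = 0.0023). Jun thus had the 3 separate steps of Nr4a1 and Atf3, which Junb did not show. Of genes named here as paralogues after their values were seen, Jund was 1.17-fold higher in mutant corneas than in WT (adjusted p = 0.0306), and Fosl2 was 1.21-fold lower (adjusted p = 0.00798). Fosl2 was 1.23-fold higher in rescued than in mutant (adjusted p = 0.0113), and Egr4, dim in all groups, was not called (adjusted p = 0.337 for mutant minus WT).

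**Figure D4:**
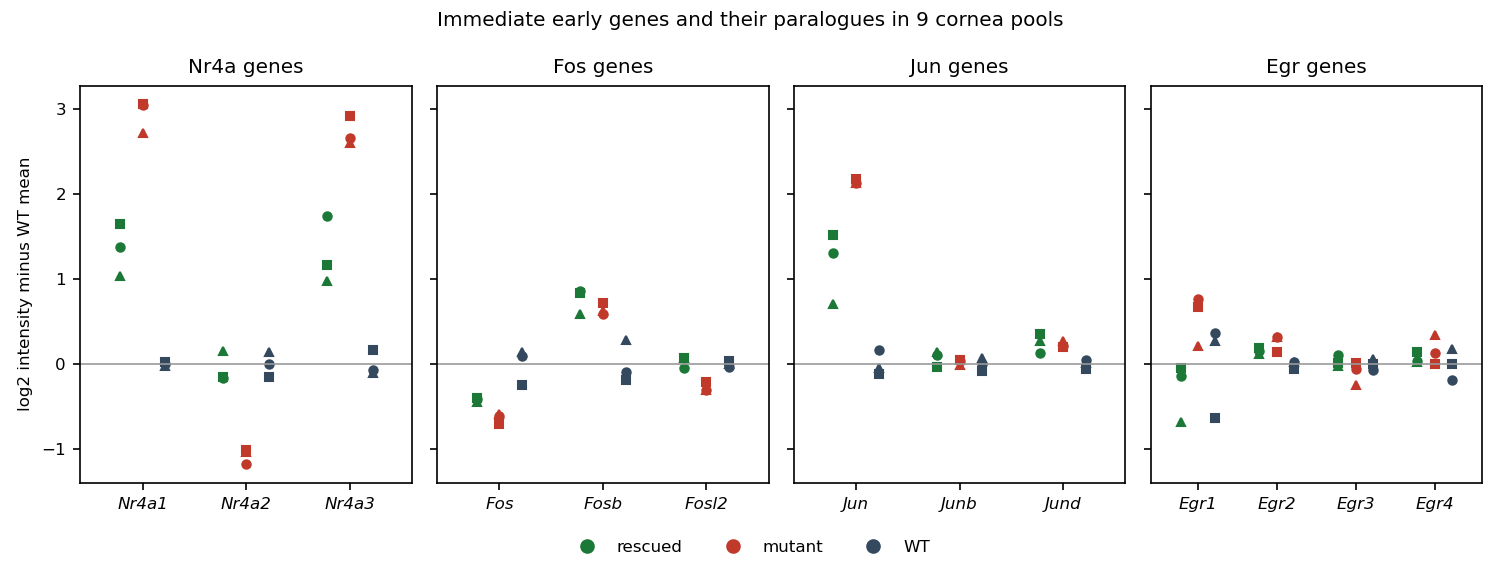
Log2 intensity minus the WT mean of the same gene (vertical axis) for members of the Nr4a, Fos, Jun and Egr families in rescued, mutant and WT pools, 3 points each, with shapes for replicate numbers as in the plot of values by pool. Mutant points of Nr4a1, Nr4a3 and Jun lie more than 2 above the WT mean, and those of Nr4a2 about 1 below it.

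Other genes of the class were counted in the same comparisons. Of 41 other immediate early genes listed, 40 were measured: 22 were higher and 6 lower in mutant than in WT, 4 higher and 13 lower in rescued than in mutant, and 18 higher in rescued than in WT. Over all genes the shares were 15.1% higher and 16.5% lower in mutant than in WT, 6.46% higher and 6.88% lower in rescued than in mutant, and 6.28% higher in rescued than in WT, so that the 6 of 40 lower in mutant were near the share of all genes. The median log2 differences of the 40 genes were 0.24 for mutant minus WT, −0.12 for rescued minus mutant and 0.21 for rescued minus WT. Ptgs2, the gene for cyclooxygenase 2, was 9.40-fold higher in mutant corneas than in WT (adjusted p = 9.98e-07) and 2.90-fold lower in rescued than in mutant (adjusted p = 0.000295). Cyr61 (Ccn1), the gene for a matricellular protein, was 2.90-fold higher in mutant corneas than in WT and 2.25-fold lower in rescued than in mutant. Ctgf (Ccn2) was 1.90-fold higher in rescued than in WT (adjusted p = 0.0397).

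Regulators of the class were measured beside it. Of SRF, its cofactors and the EGR corepressors, 5 of 9 were higher in mutant than in WT, and 3 were lower in rescued than in mutant. Over all genes 15.1% were higher in mutant than in WT, 6.88% lower in rescued than in mutant and 6.28% higher in rescued than in WT. Elk3, the gene for a ternary complex factor, was 1.83-fold higher in mutant and 1.68-fold higher in rescued than in WT, while Elk1 and Elk4 were not called in any comparison. Nab1, whose product represses EGR factors, was 1.57-fold higher in mutant corneas than in WT and 1.40-fold lower in rescued than in mutant. The list of actin and contractile targets of SRF had 16 genes. Each was called higher in mutant than in WT and lower in rescued than in mutant, and 13 were higher in rescued than in WT. Fhl2 and Tagln, among these targets, fell by 1.84 and 1.98 on the log2 scale in rescued relative to mutant corneas. Of 10 feedback genes of the ERK MAP kinase pathway, 2 were higher and 3 lower in mutant than in WT, with Dusp5 2.11-fold higher and Etv5 1.28-fold lower, and the 2 higher are near the 15.1% of all genes. Of 13 measured AP-1 partners and ATF genes 4 were higher and 1 lower in mutant than in WT, with 15.1% and 16.5% of all genes for comparison. Jdp2, the gene for a repressor of AP-1, was 2.19-fold lower in mutant than in WT and 2.26-fold higher in rescued than in mutant.

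Markers of other cells moved with the genotypes as well. For comparison, 15.1% of all genes were called higher and 16.5% lower in mutant than in WT. The shares were 6.46% higher and 6.88% lower in rescued than in mutant, and 6.28% higher and 7.43% lower in rescued than in WT. All 8 macrophage markers were higher in mutant than in WT, 1 of 8 was lower in rescued than in mutant, and 7 of 8 were higher in rescued than in WT. Their mean log2 intensity was 7.97 to 8.43 in rescued, 8.29 to 8.88 in mutant and 7.05 to 7.20 in WT pools. Of 6 blood endothelial markers 5 were higher and 1 lower in mutant than in WT, and 4 were lower in rescued than in mutant. In rescued minus WT 4 of these markers were higher and 1 was lower. Their means were 7.71 to 8.01 in rescued, 8.10 to 8.71 in mutant and 6.53 to 6.69 in WT pools. Of 4 measured T, B and mast cell markers 3 were higher and 1 lower in mutant than in WT. In rescued corneas 2 were lower and 1 higher than in mutant, and 2 were higher and 1 lower than in WT. Their means were 7.40 to 7.83 in rescued, 7.78 to 8.71 in mutant and 6.57 to 6.76 in WT pools. Mcpt4 and Cpa3, which encode proteases of mast cells, and Rgs5 of the pericyte list were named after their values were seen. Mutant exceeded WT by 3.81 on the log2 scale in Mcpt4, at least 10.4-fold in Cpa3 and at least 27.9-fold in Rgs5, and all 3 were lower in rescued than in mutant. Kit, of the T, B and mast cell list and also named after its values were seen, went the other way. Its log2 difference was −1.31 for mutant minus WT, 0.55 for rescued minus mutant and −0.76 for rescued minus WT, each called. Of the 4 pericyte markers 2 were higher in mutant than in WT and 1, Notch3, was lower (log2 difference −0.53). The median log2 difference of that list was 0.29 for mutant minus WT. Rgs5 was the only pericyte marker called lower in rescued than in mutant. Neutrophil markers were higher in 3 of 7 in mutant than in WT and lower in 3 of 7 in rescued than in mutant, with means of 5.66 to 5.73 in rescued, 6.11 to 6.40 in mutant and 5.41 to 5.58 in WT pools. All 4 conjunctival markers were higher in mutant than in WT and 2 in rescued than in WT, with means of 9.82 to 10.37 in rescued, 10.45 to 10.61 in mutant and 8.71 to 9.01 in WT pools. Keratocyte markers were lower in 3 of 5 in mutant than in WT and in 2 of 5 in rescued than in WT. Their means were 11.3 to 11.5 in rescued, 11.1 to 11.3 in mutant and 11.8 to 11.9 in WT pools. The part of these cells in the differences of Nr4a1, Atf3, Fosb and Fos was not tested.

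Lists that bear on handling and on time of day were measured too. Of 10 heat shock genes 5 were higher in mutant than in WT and 4 were lower in rescued than in mutant, against 15.1% and 6.88% of all genes, with a log2 difference of 0.59 for Hspd1 in mutant minus WT. Hspa1a and Hspa1b were not called in any comparison. Hsph1, Dnajb1, Hsp90aa1 and Hspd1 were each called higher in mutant than in WT and lower in rescued than in mutant. Of 14 measured clock and clock output genes 10 were lower and 1 higher in mutant than in WT, and 10 were lower and 1 higher in rescued than in WT. In rescued corneas 4 of the 14 were higher and 0 lower than in mutant, against 6.46% and 6.88% of all genes. Over all genes 16.5% were lower and 15.1% higher in mutant than in WT, and 7.43% lower and 6.28% higher in rescued than in WT. Hlf was 3.48-fold and Dbp 2.36-fold lower in mutant than in WT. Lens genes, at a mean log2 intensity of 7.89 to 8.35 in rescued, 8.12 to 9.27 in mutant and 9.46 to 9.95 in WT pools, were lower in 3 of 5 in both mutant and rescued corneas against WT. The part of these differences in the immediate early values was not tested.

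The genes most like each of the 10 over the 9 arrays were taken from 12687 others with a mean at or above the table median. For Nr4a1 these were Pfkp, Tslp and Tnks1bp1 (Pearson r = 0.997 for each), and for Atf3 they were Sh2d5, Degs1 and Mapkapk2 (r = 0.995 to 0.996). Fosb was most like Maml1, Epha2 and Tlr4 (r = 0.966 to 0.988), and Fos was most like Trim23, Spa17 and Creg1 (r = 0.975 to 0.983). The genes nearest to Junb, Egr3 and Ier2, whose levels hardly moved, had lower values, with the highest r at 0.908, 0.915 and 0.914. Each r is over 9 arrays that share 3 group levels, was the highest of many, and is a description.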

How the data were processed

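Total RNA from whole corneas was extracted with Trizol, prepared with the Ambion WT Expression and Affymetrix WT Terminal Labeling kits and read on single-colour arrays, per the labels' protocols. The deposited table holds log2 intensities that the authors had normalised; the labels do not state the method, and base 2 was inferred from the range of 2.14 to 14.3. Of 41345 rows, 23521 carry exactly 1 symbol, which gave 22180 genes, each read from its brightest row by mean over the 9 arrays.

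The 3 comparisons were fitted across all genes and all 9 arrays with limma 3.58.1 (R 4.3.3; lmFit, contrasts.fit, eBayes), two-sided, with calls made at 0.05 after Benjamini-Hochberg adjustment over all genes. The fit was tested on simulated data. SEs and 95% intervals are limma's. Folds are ratios of intensities, given as at least where the lower mean lay below the median of all rows. A gene called between mutant and WT was said to return if rescued minus mutant was called the other way. The genes, lists and alternatives were chosen with earlier results of these data known. Named beside the 10 were Dstn, Srf and genes taken from the up to 4 of each list with the largest called change per comparison. Jund, Fosl2, Egr4, Elk1, Elk4, Hspa1a, Hspa1b, Mcpt4, Cpa3, Kit, Rgs5 and Nr4a2 in mutant against WT were named after their values were seen. Listed genes without a row of a single symbol were not analysed here. Figures used matplotlib 3.10.9 (Python 3.11.15).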

Additional observations from a re-analysis of the deposited data

How the results depend on the processing

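Each comparison was refitted under 17 alternatives: quantile normalisation, array median centring, genes at or above the median intensity only, row means per gene, an intensity-dependent prior, the 6 arrays alone, the replicate number as a block, an adjusted p under 0.01, and each of 9 arrays left out. Of 507 refitted differences of the 10 genes, 482 kept their side of the threshold, and in 6 of these, all uncalled and near 0 (Junb and Ier2 in mutant minus WT, Egr3 in rescued minus WT), the sign turned. The 25 others concern Egr1, Egr2, Fos and Ier3, and none of them changed sign. At an adjusted p under 0.01 rescued minus mutant had 767 genes higher and 653 lower (1432 and 1527 at 0.05), and rescued minus WT had 649 higher, 725 lower (1393 and 1649 at 0.05) and 0 of the 10 genes lower in place of 1, by construction of a stricter threshold. With an array left out, the genes lower in rescued than in mutant numbered 837 to 1458, fewest without rescued replicate 3 (893 and 907 without mutant replicates 1 and 3). Genes higher in rescued than in WT numbered 819 to 1429, fewest without rescued replicate 2, and genes lower 993 to 1590, fewest without rescued replicate 2 (1072 without rescued replicate 1 and 1033 without WT replicate 1). Of the 10, 0 to 1 was lower in rescued than in WT. Same-numbered pools did not deviate together (correlations −0.02 to 0.06), and the numbers were not used as pairs in the main fit. With 3 pools per group this check cannot show what the numbers stand for. With the replicate block 1308 genes were lower in rescued than in mutant and all counts of the 10 were as without it. Depth does not apply to arrays; Egr2 and Egr3 lay near the median intensity, where signal over background was not shown.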
